A study of Mus musculus with 4 samples.

Results

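Cytokinesis genes are described here in sorted mouse blood stem cells: Ect2, Cep55, Anln, Racgap1, Prc1, Cit, Depdc1a and Depdc1b. They were chosen by name, and every probe set annotated to one of these symbols alone was taken, which gave 16 probe sets for 8 genes, out of 45101 probe sets and 18193 named genes on the array. The series compares long-term haematopoietic stem cells (LT-HSC), gated as Lin-cKit+Sca1+CD34-CD135-, with short-term haematopoietic stem cells (ST-HSC), gated as Lin-cKit+Sca1+CD34+CD135-, on 2 Affymetrix arrays each. All bone marrow came from control mice on a C57BL/6 background (C57B/6 in 3 of the entries) that lack the interferon-inducible Mx-Cre, and all mice had received 7 poly(I:C) injections on alternate days. Both LT-HSC arrays, and replicate 2 of ST-HSC, used mice 7.5 weeks old killed 4 weeks after the last injection. Replicate 3 of ST-HSC used mice 8.5 weeks old killed 3 weeks after it. The tissue field of the ST-HSC samples reads LT-HSC beside a CD34+ gate, and the titles were followed. Whether animals were pooled, and whether the LT-HSC arrays came from separate animals, is not given in the labels, so the p-values measure the spread between these arrays, which may be partly technical.

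All 8 genes had at least 1 probe set that was lower in LT-HSC, and no probe set was higher by the test. For Depdc1a that single probe set was bright enough to be tested only through ST-HSC. Cep55 was 16.1-fold higher in ST-HSC and had the largest difference of the 8 genes under each of the 17 alternatives too. Depdc1b was 9.71-fold and Ect2 8.42-fold higher in ST-HSC, an order between those 2 genes that turned with a pseudocount of 64 and without LT-HSC replicate 2 or ST-HSC replicate 2. Cit was 3.37-fold higher in ST-HSC on its clearest probe set. Prc1 had 2 bright probe sets that disagreed, 1 of them 4.59-fold higher in ST-HSC and the other near equal. These calls depended on having both LT-HSC arrays: 9 of 12 tested probe sets were lower with all 4 arrays, where 5.48% of all 27022 tested probe sets were. The 9 include Depdc1a and 1 probe set of Cit, both tested only because ST-HSC was higher, so the count is a description. Without LT-HSC replicate 1 the count was 2 (0.0481% of all), and leaving out LT-HSC replicate 2 instead gave 3 (0.0925% of all), or 0 and 1 with the Affymetrix controls kept in the normalization. The median difference over the 12 was -2.22 with all arrays, and -2.07 and -2.32 with those arrays left out.

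Cytokinesis divides the cell body after the chromosomes have separated. The central spindle, bundled by Prc1 and by centralspindlin, of which Racgap1 is a subunit, recruits the exchange factor Ect2. Ect2 activates RhoA, which builds an actin and myosin ring scaffolded by anillin (Anln), and citron kinase (Cit) keeps the ring and midbody in order. Cep55 then brings the ESCRT machinery to the midbody for the final cut. Many of these genes are transcribed late in the cell cycle, so their messages mark dividing cells, and in adult marrow most long-term stem cells are out of cycle while short-term stem cells divide more often. In sorted populations such as these, fewer cycling cells, less message per cell and a different mix of cells cannot be told apart.

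The sequence around the transcription start is shown because late cell cycle genes are often controlled there, through a cell cycle homology region (CHR) and NF-Y boxes. Of the 8 genes, 7 matched the RefSeq promoter table of build GRCm38.p6, and Depdc1b was the remaining gene. The stretch from 170 bases before to 30 bases after the first start listed for each gene is given 5′ to 3′ on the gene's own strand. Capitals mark matches, on either strand, to TTTGAA (CHR), CCAAT (NF-Y box) and GCGCCAA (E2F).
Ect2, chr3:27153849-27154048, minus strand: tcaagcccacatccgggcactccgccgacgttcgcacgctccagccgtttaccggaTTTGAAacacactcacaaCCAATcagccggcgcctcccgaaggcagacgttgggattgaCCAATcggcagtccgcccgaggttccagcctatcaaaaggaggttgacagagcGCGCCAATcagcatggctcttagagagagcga
Racgap1, chr15:99651627-99651826, minus strand: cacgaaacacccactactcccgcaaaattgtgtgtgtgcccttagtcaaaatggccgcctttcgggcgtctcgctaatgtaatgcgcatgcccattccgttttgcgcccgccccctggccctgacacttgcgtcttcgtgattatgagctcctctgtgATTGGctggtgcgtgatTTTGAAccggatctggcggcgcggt
Prc1, chr7:80294281-80294480, plus strand: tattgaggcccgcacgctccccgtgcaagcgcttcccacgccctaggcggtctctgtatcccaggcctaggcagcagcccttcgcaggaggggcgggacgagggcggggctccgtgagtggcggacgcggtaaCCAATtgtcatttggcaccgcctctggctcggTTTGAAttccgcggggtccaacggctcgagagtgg
Anln, chr9:22389177-22389376, minus strand: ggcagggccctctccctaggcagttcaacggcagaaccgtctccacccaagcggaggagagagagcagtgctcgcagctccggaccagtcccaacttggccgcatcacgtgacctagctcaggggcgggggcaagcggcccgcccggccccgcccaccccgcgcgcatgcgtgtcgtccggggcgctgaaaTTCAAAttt
Cit, chr5:115845486-115845685, plus strand: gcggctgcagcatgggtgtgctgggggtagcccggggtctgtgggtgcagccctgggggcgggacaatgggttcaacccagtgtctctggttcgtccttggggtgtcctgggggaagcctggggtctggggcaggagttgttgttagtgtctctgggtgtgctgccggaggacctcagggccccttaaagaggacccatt
Cep55, chr19:38054814-38055013, plus strand: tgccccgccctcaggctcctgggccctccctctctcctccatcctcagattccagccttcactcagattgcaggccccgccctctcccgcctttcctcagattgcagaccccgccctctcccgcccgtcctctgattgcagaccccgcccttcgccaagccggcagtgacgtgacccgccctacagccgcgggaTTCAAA
Depdc1a, chr3:159495263-159495462, plus strand: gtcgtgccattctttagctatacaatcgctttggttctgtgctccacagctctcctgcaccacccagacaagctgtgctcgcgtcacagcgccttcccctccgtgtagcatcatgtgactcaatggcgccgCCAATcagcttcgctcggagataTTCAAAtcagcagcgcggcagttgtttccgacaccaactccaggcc

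TTTGAA or its reverse complement was found in the 300-base window, which reaches from 250 bases before to 50 after the start, of 6 of the 7 genes. Among all 32851 promoter windows in the table, 17.9% held it. In those 6 genes at least 1 match lay within 50 bases of a listed start, and 5.31% of all windows held a CHR in that stretch, a distance that was chosen after the positions had been seen. The match lay at bases 6 to 11 after the start in Racgap1 and at bases 25 to 30 in Cep55. In Anln, 2 copies on opposite strands lay at bases 22 to 27 and 29 to 34, of which the second runs past the printed stretch. The other form searched, TTCGAA, was in none of the 7 genes (0) and in 1.56% of all windows.

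CCAAT on either strand was in 4 of the 7 genes, Ect2, Racgap1, Prc1 and Depdc1a, and in 37.4% of all windows. Ect2 held 3 copies in its first window, and the copy next to the start overlapped its GCGCCAA match. That E2F motif was in 2.45% of all windows and the other E2F form, GCGGGAA, was in none of the 7 genes (0) and in 4.60% of windows. Cit held no match to any of the 5 motifs, which says only that these letters are absent from this window. The printed Cit stretch lies wholly inside the gene, whose listed span begins at chr5:115845224, and the sequence around that outer end was not searched. Matches are descriptions of sequence and were not tested as binding sites.

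**Figure D1:**
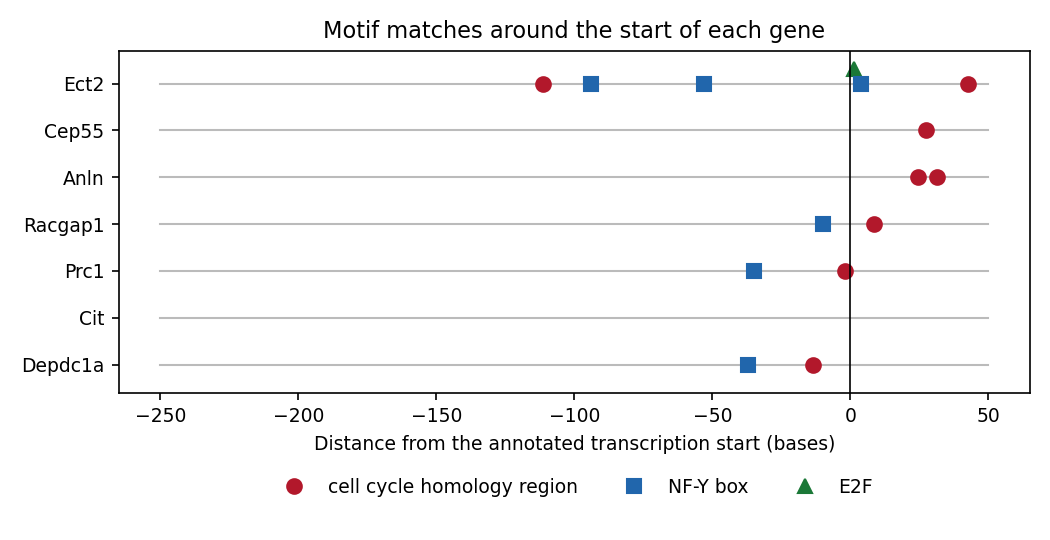
Positions of motif matches in the 300-base window of each gene with a promoter entry, in bases from the first annotated transcription start. Circles are CHR matches, squares NF-Y boxes and the triangle the E2F match; the 6 genes other than Cit have a CHR match within 50 bases of the start, and Cit has no match.

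Each array value is a probe set intensity on a linear scale, and differences are LT-HSC minus ST-HSC on the quantile-normalised log2(intensity + 16) scale, with the moderated standard error (SE) and the Benjamini-Hochberg adjusted p from limma over all tested probe sets. Values of a pair are given in the order of the replicate numbers. The added 16 shrinks the fold of dim probe sets. Of the 16 probe sets, 12 had a mean above the 40th percentile and were tested. On 2 of these 12, Depdc1a and 1 of Cit, the LT-HSC mean lay below that level, so they were tested only because ST-HSC was higher. Both are among the 9 called lower, and that count is a description. Adjusted p was under 0.05 and LT-HSC lower on 9 of the 12, against 5.48% of all 27022 tested probe sets, and LT-HSC was higher on 0 of the 12 (0 also at an unadjusted p under 0.05), against 6.72% of all. The 12 had a median difference of -2.22, and all tested probe sets a median of -0.08. Both LT-HSC arrays lay below both ST-HSC arrays on 10 of the 12, against 34.2% of all. Intensities of different probe sets are not comparable, so each is described on its own.

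Before the values, the arrays were set against markers of the gated cells and of other marrow cells. Cd34, which separated the gates, read 18.3 and 23.5 on the LT-HSC arrays, with 841 and 1142 on the ST-HSC arrays, and 3 of the 5 progenitor markers were lower in LT-HSC. Of 5 stem cell markers, Kit was lower in LT-HSC (-1.02, limma adjusted p = 0.0498), and Hlf, Mecom, Procr and Slamf1 did not pass, at differences from -0.44 to 0.52. Summed over 6 plasma cell markers, LT-HSC read 35850 and 35880 against 1562 and 2696 in ST-HSC, and 6 of 6 were higher in LT-HSC. For 5 B-cell markers the sums were 4641 and 5114 on the LT-HSC arrays, with 249 and 346 on the ST-HSC arrays, 4 of 5 were higher in LT-HSC, and Pax5 was under 16 on both ST-HSC arrays. For 7 markers of maturing granulocytes the sums were 3822 and 476 on the LT-HSC arrays, with 3535 and 49730 on the ST-HSC arrays, and 0 of 7 passed in limma (3 at an unadjusted p under 0.05). ST-HSC replicate 3 was thus the array rich in granulocyte message, and both LT-HSC arrays were rich in plasma cell message. For 4 erythroid markers the sums were 282 and 728 on the LT-HSC arrays, with 211 and 2491 on the ST-HSC arrays, with Hba-a1 under 16 on all 4 arrays. Platelet markers summed to 803 and 1241 on the LT-HSC arrays, with 3189 and 1881 on the ST-HSC arrays (2 of 5 lower). T and NK markers summed to 296 and 592 against 1307 and 1437 (2 of 5 higher and 1 lower). Most of the ST-HSC sums was Nkg7, the marker called lower, at 137 and 313 on the LT-HSC arrays, with 1277 and 1404 on the ST-HSC arrays. Gzma and Cd3g were higher in LT-HSC, and Cd3d and Cd3e were too dim to be tested. Cd3d, Cd3e, Cd3g and Gzma were under 16 on both ST-HSC arrays. The part of these cells in the cytokinesis values was not tested.

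Ect2, the exchange factor that activates RhoA at the cleavage furrow, read 19.9 and 87.2 on the LT-HSC arrays, with 392 and 720 on the ST-HSC arrays (probe set 1419513_a_at; gene on chr3:27097222-27154253, GRCm38.p6). The groups did not overlap, although LT-HSC replicate 2 read well above replicate 1. The log2 means were 6.00 ± 0.87 in LT-HSC and 9.08 ± 0.62 in ST-HSC (SD, n = 2 each), a difference of -3.07 (SE 0.50, limma adjusted p = 0.0134). Without LT-HSC replicate 1 the difference was -2.38 and no longer passed (limma adjusted p = 0.138).

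Racgap1, the GTPase-activating subunit of centralspindlin, had 3 probe sets (gene on chr15:99620496-99651656). On 1421546_a_at it read 9.54 and 30.7 on the LT-HSC arrays, with 208 and 181 on the ST-HSC arrays, and the ST-HSC arrays lay close together while both LT-HSC arrays were far below them. That probe set fell by 2.49 (SE 0.33, limma adjusted p = 0.00698), a 5.62-fold difference. On 1451358_a_at the values were 27.7 and 91.8 on the LT-HSC arrays, with 124 and 215 on the ST-HSC arrays, so LT-HSC replicate 2 came near ST-HSC replicate 2. The difference of -1.23 (SE 0.47) did not pass (limma adjusted p = 0.132), but passed without ST-HSC replicate 2 (-1.68, limma adjusted p = 0.00833). The third probe set, 1441889_x_at, read between 1.46 and 6.29 on all 4 arrays and was too dim to be tested.

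Prc1, which bundles the antiparallel microtubules of the central spindle, gave different answers on its 2 probe sets (gene on chr7:80294445-80316259). On 1423775_s_at it read 73.2 and 107 on the LT-HSC arrays, with 416 and 597 on the ST-HSC arrays, with no overlap, a difference of -2.20 (SE 0.32, limma adjusted p = 0.00912). On 1423774_a_at it read 269 and 252 on the LT-HSC arrays, with 221 and 328 on the ST-HSC arrays, so the LT-HSC arrays lay between the ST-HSC arrays. The difference there was 0.03 (SE 0.33, limma adjusted p = 0.959). Within each array the first probe set minus the second was -1.52 and -1.18 on the LT-HSC arrays, with 0.96 and 0.80 on the ST-HSC arrays, on the log2 scale. This contrast between the probe sets was picked after the values had been seen and is given without a test. By the array maker's naming, a suffix of _a_at marks probes for alternative transcripts of the same gene. A suffix of _s_at marks probes shared between transcripts of different genes, so 1423775_s_at may also read another gene. Which transcripts each probe set reads was not tested.

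**Figure D2:**
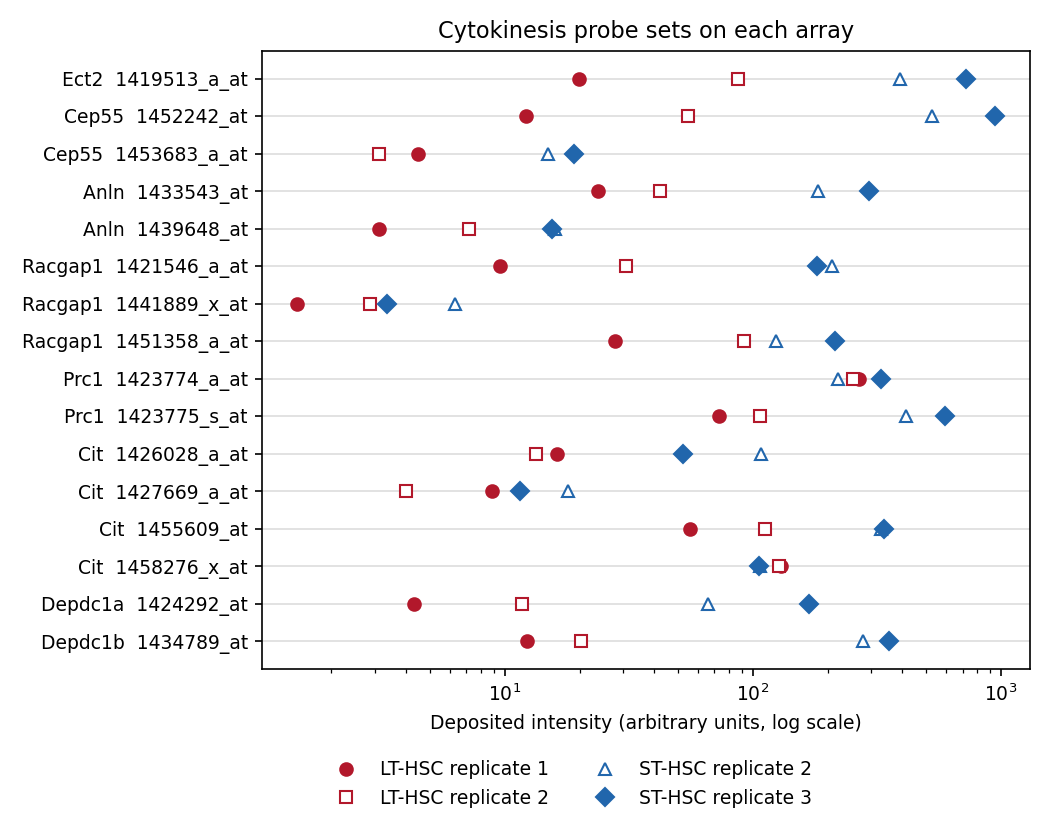
Deposited intensity of the 16 cytokinesis probe sets on each array (log axis, arbitrary units), 1 row per probe set. LT-HSC arrays are red and ST-HSC arrays blue; the red symbols lie left of the blue ones for Ect2, Cep55, Anln, Depdc1a and Depdc1b, and mix with them or lie right of them for Prc1 1423774_a_at and Cit 1458276_x_at.

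Anln encodes anillin, which ties actin, myosin and RhoA together in the contractile ring (gene on chr9:22331214-22389211). On 1433543_at it read 23.8 and 42.0 on the LT-HSC arrays, with 183 and 293 on the ST-HSC arrays. Both LT-HSC values were under 50 and both ST-HSC values well above, and the difference was -2.25 (SE 0.37, limma adjusted p = 0.0135). The second probe set, 1439648_at, read 3.10 and 7.197 on the LT-HSC arrays, with 15.97 and 15.5 on the ST-HSC arrays, which is the same order but too dim to be tested.

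Cit encodes citron kinase, a kinase of the cleavage furrow and midbody, and had 4 probe sets (gene on chr5:115845224-116008953). On 1455609_at it read 55.6 and 112 on the LT-HSC arrays, with 328 and 338 on the ST-HSC arrays, a difference of -1.75 (SE 0.33, limma adjusted p = 0.0208). On 1426028_a_at it read 16.3 and 13.4 on the LT-HSC arrays, with 108 and 52.5 on the ST-HSC arrays. This second probe set fell by 1.45 (SE 0.37), just inside the threshold (limma adjusted p = 0.0483), and lost the call under 7 of the 11 alternatives in the plot of settings that tested it. On 1458276_x_at both LT-HSC arrays, at 130 and 127, lay above both ST-HSC arrays, at 106 and 106. That difference of 0.38 (SE 0.30) did not pass (limma adjusted p = 0.445), and the suffix _x_at marks probes that can also bind other sequences. The fourth, 1427669_a_at, read 8.90 and 4.00 on the LT-HSC arrays, with 17.9 and 11.5 on the ST-HSC arrays and was too dim to be tested.

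Cep55, the midbody protein that recruits ESCRT factors for abscission, read 12.2 and 54.7 on the LT-HSC arrays, with 527 and 945 on the ST-HSC arrays on 1452242_at (gene on chr19:38054970-38074425). The lower ST-HSC array was thus far above the higher LT-HSC array. The log2 means were 5.53 ± 0.71 in LT-HSC and 9.54 ± 0.55 in ST-HSC (SD, n = 2 each), and the difference of -4.01 (SE 0.45, limma adjusted p = 0.00378) ranked 9 among the 27022 tested probe sets ordered from the lowest in LT-HSC. The other probe set, 1453683_a_at, read 4.45 and 3.12 on the LT-HSC arrays, with 15.0 and 19.0 on the ST-HSC arrays and was too dim to be tested. Its difference of means was -0.60.

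Depdc1b, a DEP domain protein that in human cells has been tied to RhoA and to entry into mitosis, read 12.2 and 20.3 on the LT-HSC arrays, with 278 and 355 on the ST-HSC arrays (1434789_at; gene on chr13:108316014-108389566). Both pairs of arrays lay close together, with log2 means of 5.05 ± 0.03 in LT-HSC and 8.33 ± 0.30 in ST-HSC (SD, n = 2 each). The difference was -3.28 (SE 0.32, limma adjusted p = 0.00212). Its paralogue Depdc1a read 4.30 and 11.7 on the LT-HSC arrays, with 66.0 and 168 on the ST-HSC arrays (1424292_at; gene on chr3:159495414-159529955). Depdc1a was thus dim on both LT-HSC arrays, and the ST-HSC arrays differed from each other by 1.34 on the log2 scale. Its difference was -2.25 (SE 0.47, limma adjusted p = 0.0288).

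**Figure D3:**
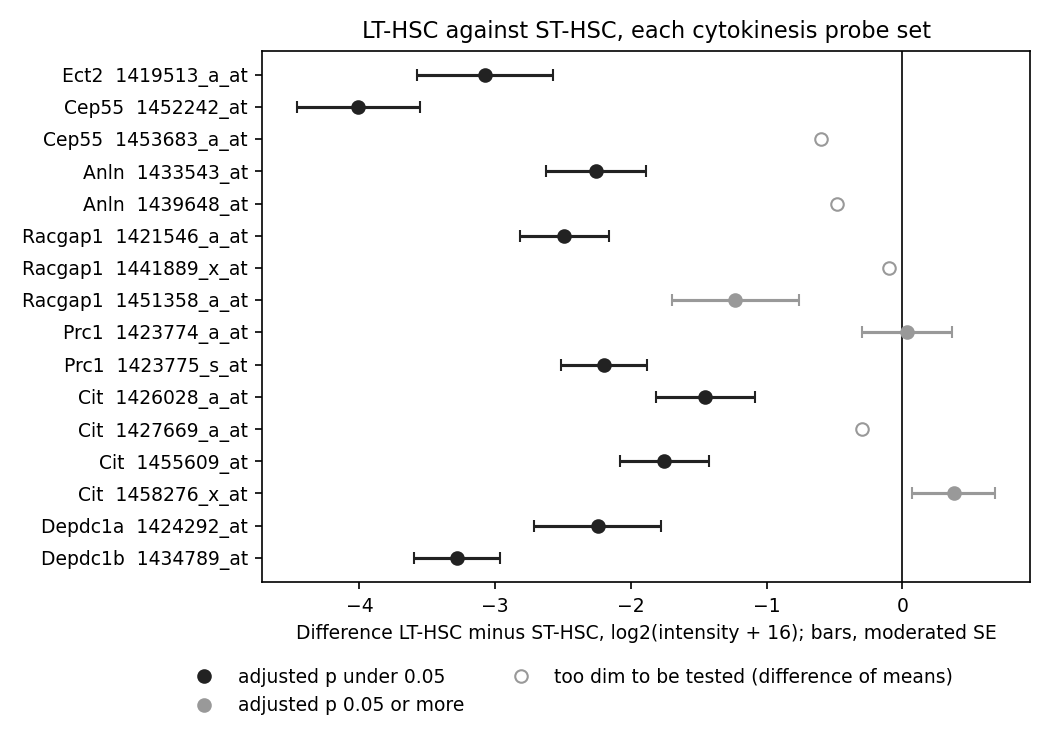
Difference LT-HSC minus ST-HSC on the log2(intensity + 16) scale for each probe set, with the moderated SE as bars. Black points passed at an adjusted p under 0.05 (9 probe sets, all below 0), grey points did not (3) and open points are the 4 probe sets too dim to be tested.

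Within groups, LT-HSC replicate 1 read below replicate 2 on 9 of the 12 tested probe sets, with a median of -0.20, against 54.6% of all tested probe sets. ST-HSC replicate 3 read above replicate 2 on 10 of the 12, with a median of 0.58, against 50.9% of all. The exceptions in ST-HSC were Racgap1 1421546_a_at (-0.05) and Cit 1426028_a_at (-0.66). On each of the 9 probe sets that passed, the difference between groups was larger than the gap within either group. Passing the test itself favours this, so it is a description and no further evidence. ST-HSC replicate 3 also differed in mouse age, in time since the last injection and in granulocyte message, and those cannot be told apart with 1 such array.

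Leaving out ST-HSC replicate 3 left 9 of the 12 lower in LT-HSC, with a median of -1.84, and 11.5% of all tested probe sets were then called lower. Leaving out ST-HSC replicate 2 also left 9 of the 12 lower, with a median of -2.48, and 16.8% of all. Without LT-HSC replicate 1 only Cep55 (-3.41, limma adjusted p = 0.0499) and Depdc1b (-3.21, limma adjusted p = 0.0424) passed, against 0.0481% of all tested probe sets called lower. Without LT-HSC replicate 2 Ect2 (-3.72, limma adjusted p = 0.0459), Cep55 (-4.54, limma adjusted p = 0.0247) and Depdc1b (-3.34, limma adjusted p = 0.0431) passed, against 0.0925% of all. In these fits the lone array is assumed to vary like the pair of the other group. With the Affymetrix controls kept in the normalization, which left the count at 9 with all arrays, 0 passed without LT-HSC replicate 1 (9 at an unadjusted p under 0.05 in limma) and Cep55 alone without LT-HSC replicate 2 (limma adjusted p = 0.0340).

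**Figure D4:**
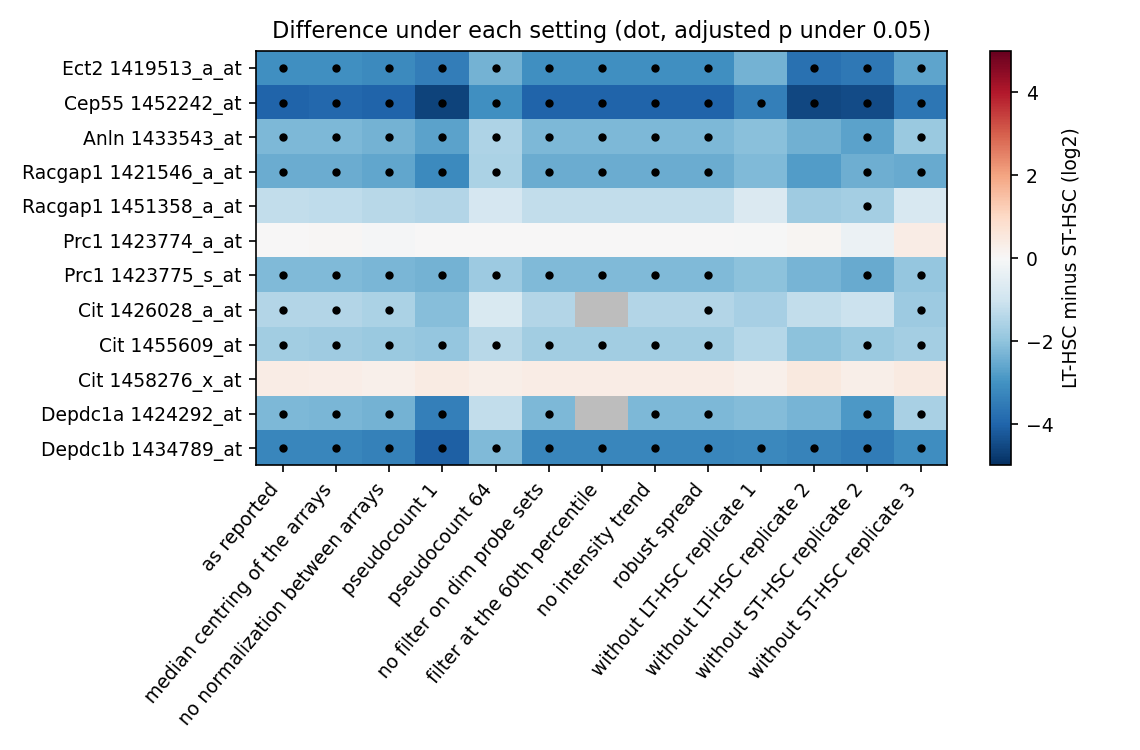
Difference LT-HSC minus ST-HSC of the 12 tested probe sets (rows) as reported and under 12 alternatives (columns), blue for lower in LT-HSC and red for higher; a dot marks an adjusted p under 0.05, and grey a probe set left out by the stricter filter. Dots thin out in the 2 columns that leave out an LT-HSC array, where 2 and 3 remain.

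Other genes of cytokinesis were read from 4 lists, over the probe sets annotated to 1 gene. The chromosomal passenger complex and Plk1, which start cytokinesis from the midzone, were lower in LT-HSC on 8 of 10 tested probe sets, against the 5.48% of all, and higher on 0 of 10 (0 also at an unadjusted p under 0.05), with a median difference of -1.86. Cdca8, the borealin subunit, read 108 and 212 on the LT-HSC arrays, with 887 and 1641 on the ST-HSC arrays (-2.86, SE 0.39, limma adjusted p = 0.00748). Aurkb, the kinase of the complex, was lower by a difference of -2.72, Incenp, its scaffold, by -1.79 and Plk1 by -1.93. Birc5 (survivin) was the gene of this list that did not pass, at -1.38 (limma adjusted p = 0.0611).

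The kinesins of the central spindle were lower on 4 of 5 tested probe sets, 1 for each of 4 genes. They were higher on 0 of 5 (0 also at an unadjusted p under 0.05). Over all tested probe sets, 5.48% were lower and 6.72% higher. The LT-HSC mean lay below the filter level on 2 of the 5, those of Kif20a and 1 of Kif20b, which were tested only because ST-HSC was higher, so the count and the median of -2.26 are descriptions. Kif23, the motor subunit that pairs with Racgap1 in centralspindlin, read 76.8 and 143 on the LT-HSC arrays, with 508 and 703 on the ST-HSC arrays (-2.26, SE 0.33, limma adjusted p = 0.00928). Its difference was close to the -2.49 of the Racgap1 probe set that passed, and the gap between the pair was not tested. Kif4, which carries Prc1 along microtubules, differed by -2.02 and Kif20b by -2.41 on its brighter probe set, both past the threshold. Kif20a read 0.940 and 20.6 on the LT-HSC arrays, with 104 and 209 on the ST-HSC arrays, and its difference of -2.65 passed with the LT-HSC mean under the filter level. The probe set of Kif14 was too dim to be tested.

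The contractile ring genes, which cells also use for shape and movement outside division, were lower on 1 of 35 tested probe sets and higher on 2, where 5.48% of all tested probe sets were lower and 6.72% higher. The other 32 did not pass, and the median was -0.16. Septin6 was lower on 1 of its 5 tested probe sets, at 27.0 and 34.2 on the LT-HSC arrays, with 149 and 135 on the ST-HSC arrays (-1.64, SE 0.30, limma adjusted p = 0.0191). Septin11 was higher on 2 of its 3 tested probe sets, at 251 and 256 on the LT-HSC arrays, with 62.2 and 80.2 on the ST-HSC arrays on the first (1.73, SE 0.32, limma adjusted p = 0.0203). Septins form filaments at the furrow, and these members thus moved in opposite directions. Diaph3, a formin, did not pass, at -1.01 (limma adjusted p = 0.0741).

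The abscission list, made of ESCRT subunits and membrane traffic genes that act in all cells, had 0 of 35 probe sets called by limma. Of all tested probe sets, 5.48% were called lower and 6.72% higher. At an unadjusted p under 0.05 in limma, 6 of the 35 were lower in LT-HSC, as were 4505 of all 27022, and 0 were higher. The median of the list was -0.35. The smallest p-values were those of Spast (-1.03), the microtubule-severing spastin, Rab11a (-1.10), a GTPase of recycling endosomes, and Ocrl (-1.27), a phosphoinositide phosphatase, each with a limma adjusted p between 0.0519 and 0.0537. The other tested probe set of Spast went the opposite way, at 140 and 143 on the LT-HSC arrays, with 84.3 and 112 on the ST-HSC arrays. Its difference of 0.61 did not pass (limma adjusted p = 0.260). Both LT-HSC arrays lay below both ST-HSC arrays on 19 of the 35, against the 34.2% of all probe sets. Whether the lists differ from each other was not tested. Of all 85 probe sets on the 4 lists, 13 were lower in LT-HSC and 2 higher, against the 5.48% and 6.72% of all tested probe sets. The 13 became 0 without LT-HSC replicate 1 (18 at an unadjusted p under 0.05 in limma), 1 without LT-HSC replicate 2, 29 with replicate 2 of ST-HSC left out and 25 with its replicate 3 left out. The share of all tested probe sets called lower moved the same way, to 0.0481%, 0.0925%, 16.8% and 11.5% in that order.

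**Figure D5:**
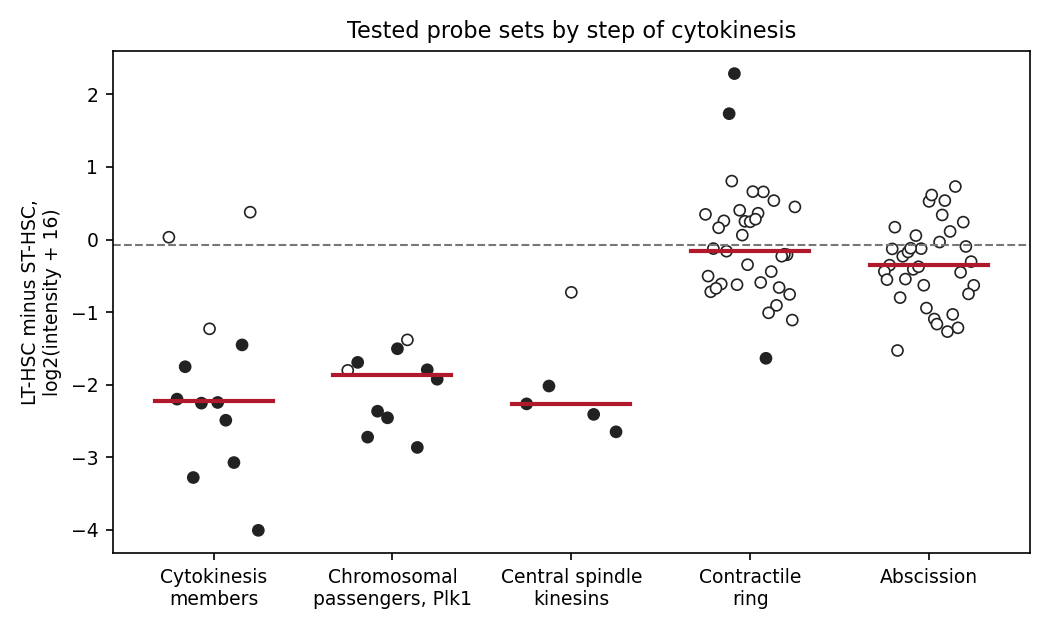
Difference LT-HSC minus ST-HSC on the log2(intensity + 16) scale for the tested probe sets of the 8 cytokinesis genes and of the 4 lists, 1 point per probe set, filled where adjusted p was under 0.05. Red bars are medians (-2.22, -1.86, -2.26, -0.16 and -0.35 in the order plotted) and the dashed line is the median of all tested probe sets, -0.08.

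The genes whose profile over the 4 arrays was most like the mean profile of the cytokinesis genes were found by Euclidean distance between log2 values centred per probe set, over 22224 candidate probe sets. Each cytokinesis gene entered with its brightest tested probe set. The mean profile was -1.37 and -0.86 on the LT-HSC arrays, with 0.75 and 1.48 on the ST-HSC arrays. The 5 nearest genes were Dna2 (a nuclease and helicase of DNA replication, distance 0.09), Slc25a5 (the mitochondrial ADP/ATP carrier, 0.11), Hmgb2 (a chromatin protein, 0.12), Hmgn5 (a nucleosome-binding protein, 0.14) and Cenpm (a centromere protein, 0.14). Dna2 read 41.3 and 88.0 on the LT-HSC arrays, with 299.9 and 519 on the ST-HSC arrays, a difference of -2.29. Among the cytokinesis genes themselves Anln lay nearest to the mean, at 0.22, and Prc1 farthest, at 2.31, on the probe set that did not differ. With 4 arrays this likeness is a description only.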

How the data were processed

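Per the labels' protocols, Trizol-purified RNA of sorted cells went through 2 amplification rounds and biotin labelling. The authors deposited a linear intensity for each probe set; the software and scaling behind it were not given in the sources used here. Array medians ran from 19.1 on LT-HSC replicate 1 to 28.3 on LT-HSC replicate 2, and the small number of arrays limits precision. LT-HSC replicate 1 was the dimmest array, with 46.3% of probe sets under 16, against 35.1% to 37.9% on the others. The 64 Affymetrix controls were dropped, 16 was added and the log2 values were quantile normalised.

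The fit used limma 3.58.1 (R 4.3.3; lmFit, eBayes, trend on) over the 27022 probe sets with a mean above the 40th percentile. A Benjamini-Hochberg adjusted p of 0.05 was the threshold, with 2 residual and 4.84 prior degrees of freedom. The procedure was tested on simulated data. Symbols came from the platform annotation: 34945 probe sets had 1 gene, 932 had several and 9160 were unnamed here. All 8 genes matched RefSeq (GRCm38.p6), which gave coordinates for all 8 and promoters for 7. Groups came from sample titles. A part of the genotype that all mice shared is not reported here.

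Members, gene lists, marker lists and alternatives were chosen with earlier results of these data known. Named genes were all members, the 3 of smallest p in each partner list, those called against their list, and the 5 nearest profiles. Birc5, Plk1, Kif20a and Kif14 were named after their values were seen, and Rock2 had no probe set to itself. Alternatives covered normalization, pseudocount, filter, spread model, each array left out and, added after the data were seen, controls kept in the normalization.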

Additional observations from a re-analysis of the deposited data

How the results depend on the processing

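No paired analysis was possible because LT-HSC replicates 1 and 2 and ST-HSC replicates 2 and 3 share 1 number. Under 8 other settings of normalization, pseudocount, filter and spread model with all 4 arrays, 2.22% to 8.13% of all tested probe sets were lower in LT-HSC. The smallest share came with no filter, where 8 of 16 cytokinesis probe sets were lower. The largest came with the filter at the 60th percentile, where 7 of 10 were lower, and 12 were tested under the other settings. The count of cytokinesis probe sets lower in LT-HSC was 7 to 9 under these 8 settings, against 9 as reported, and 0 were higher. With 1 array left out the count ran from 2 to 9, the count of partner probe sets lower in LT-HSC from 0 to 29 (13 as reported, and 18 at an unadjusted p under 0.05 where it was 0) and that of all probe sets called from 415 to 8774 (3296 as reported). Keeping the Affymetrix controls in the normalization, an alternative added after the data were seen, gave 9 cytokinesis probe sets with all arrays. With it, leaving out 1 array gave 0 to 9 (0 without LT-HSC replicate 1, 1 without LT-HSC replicate 2; 9 and 10 had an unadjusted p under 0.05), 0 and 1 partner probe sets without LT-HSC replicates 1 and 2, 29 and 25 without ST-HSC replicates 2 and 3, and 357, 367, 8786 and 5999 in all, in the same order.

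Directions held for 11 of the 12 tested probe sets under every alternative that tested them. The exception was Prc1 1423774_a_at, which turned to -0.046 with no normalization between arrays and ran from -0.31 to 0.36 with 1 array left out (-0.30 to 0.36 with the controls kept, and -0.038 without LT-HSC replicate 1). Depdc1a lost its call with a pseudocount of 64 (-1.21, limma adjusted p = 0.0531). Cep55 ranged from -4.61 to -3.05 over the alternatives. With no filter, the 4 dim probe sets ran from -0.60 to -0.10 and none passed (limma, smallest adjusted p = 0.228).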
